A study of Mus musculus with 8 samples.

Results

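The genes that copy DNA were followed in sorted mouse B lineage cells that did or did not express a GFP reporter for AID. The set holds 41 genes named by symbol, not by their values: 18 that license and fire replication origins, 18 that work at the fork and 5 that supply deoxynucleotides. In the array annotation 91 of 45037 probe sets carry one of these symbols, and the 41 genes are among 18193 genes with a probe set of their own. AID (activation-induced cytidine deaminase) is the mutator enzyme of class switching and somatic hypermutation, and every group carried the Aid-GFP reporter. In 4 groups of 2 arrays, total RNA was measured from GFP-negative and GFP-positive BCR-ABL1 bone marrow cells and from splenic B cells stimulated with LPS (a bacterial cell wall component) and IL4 (a T cell cytokine), again GFP-negative and GFP-positive. BCR-ABL1 is the fusion kinase of chronic myeloid leukaemia and of one form of acute B cell leukaemia. How it was introduced, how long the cells were cultured or stimulated, the strain, age and number of mice, and how cells were gated are not stated in the labels. Nothing says that the 2 arrays of a group came from separate mice or cultures, so a p-value here covers only their spread, which may be technical. The series asks what differs between GFP-positive and GFP-negative cells.

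Replication starts in 2 steps that the cell cycle keeps apart. In G1 the origin recognition complex (ORC), CDC6 and CDT1 load rings of MCM2 to MCM7 onto origins, which is licensing, and geminin blocks CDT1 afterwards. In S phase the kinase CDC7 with DBF4, together with MCM10, CDC45 and the GINS complex, turns the loaded rings into moving helicases. At the fork, polymerase alpha and primase lay primers, replication factor C (RFC) loads the sliding clamp PCNA, polymerases delta and epsilon extend, RPA covers single strands and FEN1 trims flaps. Ribonucleotide reductase, thymidylate synthase, thymidine kinase and dUTPase supply the deoxynucleotides. Many of these genes are transcribed around the G1 to S transition under E2F factors, and resting splenic B cells enter the cycle when stimulated.

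Signals are probe set intensities, quantile normalized between arrays and floored at 32, and a difference is between log2 signals, given ± its standard error. Each gene is read from its brightest probe set, and a gene was called at an adjusted p under 0.05 (limma over 12223 genes and all 8 arrays, Benjamini-Hochberg). All 41 genes passed the filter on dim probe sets. The deposited arrays had trimmed mean intensities of 590.0 and 593 in the BCR-ABL1 fractions (GFP-negative first), 591 in spleen GFP-positive cells and 487 in spleen GFP-negative cells. The 3' to 5' ratio of Gapdh probe sets, a sign of RNA integrity, was 1.43, 1.47 and 1.44 in the same 3 groups and 1.91 in spleen GFP-negative cells, and that of Actb was 1.29, 1.35, 1.29 and 1.51. B cell receptor components were high in every group, with Cd79a between 7960.4 and 10997 over the 8 arrays. Cd79b, Blk and Ebf1 gave 2244 or more on each array, but other B lineage markers varied. Ms4a1 gave 443 and 576 in BCR-ABL1 GFP-negative cells, 32 and 45.4 in GFP-positive cells and 7192 to 8011 in spleen cells. Cd22 gave 744 and 728, 218 and 212, and 4716 to 6704. Pax5 was dim (55.6 to 307). In BCR-ABL1 cells 2 of 7 B lineage markers were called lower and 0 higher in GFP-positive cells. Of 6 pre-B genes, Vpreb1 (16997 and 16630.2 in BCR-ABL1 GFP-negative cells), Dntt (8026 and 7692), Rag1 and Rag2 were higher in all BCR-ABL1 arrays than in all spleen arrays. The other two did not follow: Igll1 was lower in BCR-ABL1 GFP-negative cells (613 and 584) than in spleen GFP-negative cells (2230 and 1764), and Il7r gave 4579 and 4553 in spleen GFP-negative cells, between BCR-ABL1 GFP-negative (3784 and 3729) and GFP-positive cells (4868 and 4776). The spleen GFP-negative arrays also carried markers of other cells: the summed signal of 14 myeloid markers was 85642 to 87568 there, 704 to 715 in spleen GFP-positive cells and 923 to 1180 in BCR-ABL1 cells. The sum of 10 T and NK cell markers was 20282 to 21436 in spleen GFP-negative cells and 2951 to 3163 in spleen GFP-positive cells. The label of splenic B cells therefore does not cover all that these 2 arrays held, and each comparison with the spleen GFP-negative group rests on them.

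Short promoter sequences are shown first, because E2F words were a feature that the choice of genes did not use and that lay in more of these promoters than of others. RefSeq promoter windows (GRCm38.p6, 250 bases before the annotated start to 50 after) were on hand for 34 of the 41 genes. An E2F word was any of TTTCCCGC, TTTCGCGC, TTTGCCGC or TTTGGCGC on either strand. Words that overlap, as they do in Mcm5 and Mcm6, are joined below. At least 1 word lay in the window of 11 of the 34 genes (32.4%), against 575 of 17491 protein-coding genes (3.29%). By role these were 7 of 14 licensing and origin genes, 4 of 15 fork genes and 0 of 5 nucleotide supply genes. The 17 words fall in 15 stretches, 8 of them before the start and 7 after it. Each stretch is printed 5′ to 3′ along the gene's strand, with the words in capitals.
Mcm3, chr1:20820276-20820303, minus strand, 20 bases after the start: aacttccgtgGCGGGAAAacttgggaag
Mcm3, chr1:20820263-20820284, minus strand, 39 bases after the start: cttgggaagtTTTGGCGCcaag
Mcm5, chr8:75109347-75109376, plus strand, 153 bases before the start: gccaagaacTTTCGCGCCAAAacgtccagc
Mcm6, chr1:128359795-128359824, minus strand, 110 bases before the start: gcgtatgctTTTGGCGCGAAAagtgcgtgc
Mcm6, chr1:128359735-128359762, minus strand, 47 bases before the start: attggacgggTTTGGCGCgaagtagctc
Mcm7, chr5:138172031-138172058, minus strand, 165 bases before the start: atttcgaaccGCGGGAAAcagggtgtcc
Mcm7, chr5:138171850-138171877, minus strand, 17 bases after the start: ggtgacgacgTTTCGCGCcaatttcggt
Orc1, chr4:108579417-108579444, plus strand, 27 bases before the start: tcggttagtgGCGCGAAAagttttctcc
Cdc6, chr11:98908003-98908030, plus strand, 138 bases before the start: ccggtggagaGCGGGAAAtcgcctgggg
Cdt1, chr8:122568037-122568064, plus strand, 33 bases after the start: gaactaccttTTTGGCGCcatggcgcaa
Rfc3, chr5:151651201-151651228, minus strand, 10 bases before the start: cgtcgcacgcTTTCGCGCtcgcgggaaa
Rfc3, chr5:151651191-151651218, minus strand, 1 bases after the start: tttcgcgctcGCGGGAAAactctactgt
Pola1, chrX:93632276-93632303, minus strand, 138 bases before the start: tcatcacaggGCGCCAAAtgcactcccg
Pold1, chr7:44548766-44548786, minus strand, 40 bases after the start: gtatcttgtgGCGGGAAAagc
Pole2, chr12:69228163-69228190, minus strand, 11 bases after the start: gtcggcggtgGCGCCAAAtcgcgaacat
The lower case bases after the first Rfc3 word hold the second one, which follows it after 2 bases. A match shows that these letters are in the window, not that a factor binds there.

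Other promoter words were more widely shared with the rest of the genome. The CCAAT box (CCAAT, the site of NF-Y) was in 21 of 34 windows (61.8%) against 42.3% of protein-coding genes, and the GC box (GGGCGG, the site of SP1) in 25 (73.5%) against 49.2%. TTTGAA, the cell cycle homology region, was in 6 (17.6%) against 18.5%. The 250 bases before the start are printed for the 2 genes of each role whose signal differed most between the spleen fractions and that have a window, with E2F words in capitals. Cdc6 and Pola1 each have 1 word, and in both it begins 138 bases before the start.
Cdc6, chr11:98907901-98908150, plus strand: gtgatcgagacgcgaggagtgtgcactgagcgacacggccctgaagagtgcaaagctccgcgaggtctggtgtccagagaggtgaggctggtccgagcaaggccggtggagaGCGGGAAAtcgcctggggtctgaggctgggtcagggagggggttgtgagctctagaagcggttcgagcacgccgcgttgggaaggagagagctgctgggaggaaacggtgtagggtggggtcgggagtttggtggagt
Pola1, chrX:93632156-93632405, minus strand: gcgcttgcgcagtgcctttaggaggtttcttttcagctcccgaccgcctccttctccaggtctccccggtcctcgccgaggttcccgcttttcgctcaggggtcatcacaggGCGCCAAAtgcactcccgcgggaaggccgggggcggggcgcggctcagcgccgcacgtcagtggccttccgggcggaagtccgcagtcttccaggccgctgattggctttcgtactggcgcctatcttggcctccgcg
Mcm10, Rfc5, Tk1 and Rrm1 have none of the 4 words in these windows.
Mcm10, chr2:5012792-5013041, minus strand: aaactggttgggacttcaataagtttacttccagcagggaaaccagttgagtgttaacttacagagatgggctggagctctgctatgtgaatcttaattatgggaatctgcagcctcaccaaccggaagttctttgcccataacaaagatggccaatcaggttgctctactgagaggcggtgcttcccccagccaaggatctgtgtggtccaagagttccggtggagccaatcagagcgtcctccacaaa
Rfc5, chr5:117389024-117389273, minus strand: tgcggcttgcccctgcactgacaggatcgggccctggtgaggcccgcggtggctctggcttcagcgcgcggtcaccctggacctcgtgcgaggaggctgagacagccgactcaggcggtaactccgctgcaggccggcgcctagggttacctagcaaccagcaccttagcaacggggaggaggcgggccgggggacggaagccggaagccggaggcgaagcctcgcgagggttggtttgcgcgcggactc
Tk1, chr11:117826015-117826264, minus strand: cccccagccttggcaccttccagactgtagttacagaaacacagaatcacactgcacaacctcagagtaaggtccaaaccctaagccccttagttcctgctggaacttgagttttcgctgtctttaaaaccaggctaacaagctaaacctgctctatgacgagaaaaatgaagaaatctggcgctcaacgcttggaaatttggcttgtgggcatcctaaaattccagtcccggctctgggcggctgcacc
Rrm1, chr7:102441445-102441694, plus strand: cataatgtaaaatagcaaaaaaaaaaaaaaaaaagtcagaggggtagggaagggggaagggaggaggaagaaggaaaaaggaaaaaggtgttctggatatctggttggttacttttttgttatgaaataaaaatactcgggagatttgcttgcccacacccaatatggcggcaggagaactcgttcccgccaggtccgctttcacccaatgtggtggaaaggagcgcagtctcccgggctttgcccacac
Mcm10 and Rrm1 have 2 CCAAT boxes each in the printed stretch, and Tk1 has 1 GC box. The map of matches shows where the words sit along each window.

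**Figure D1:**
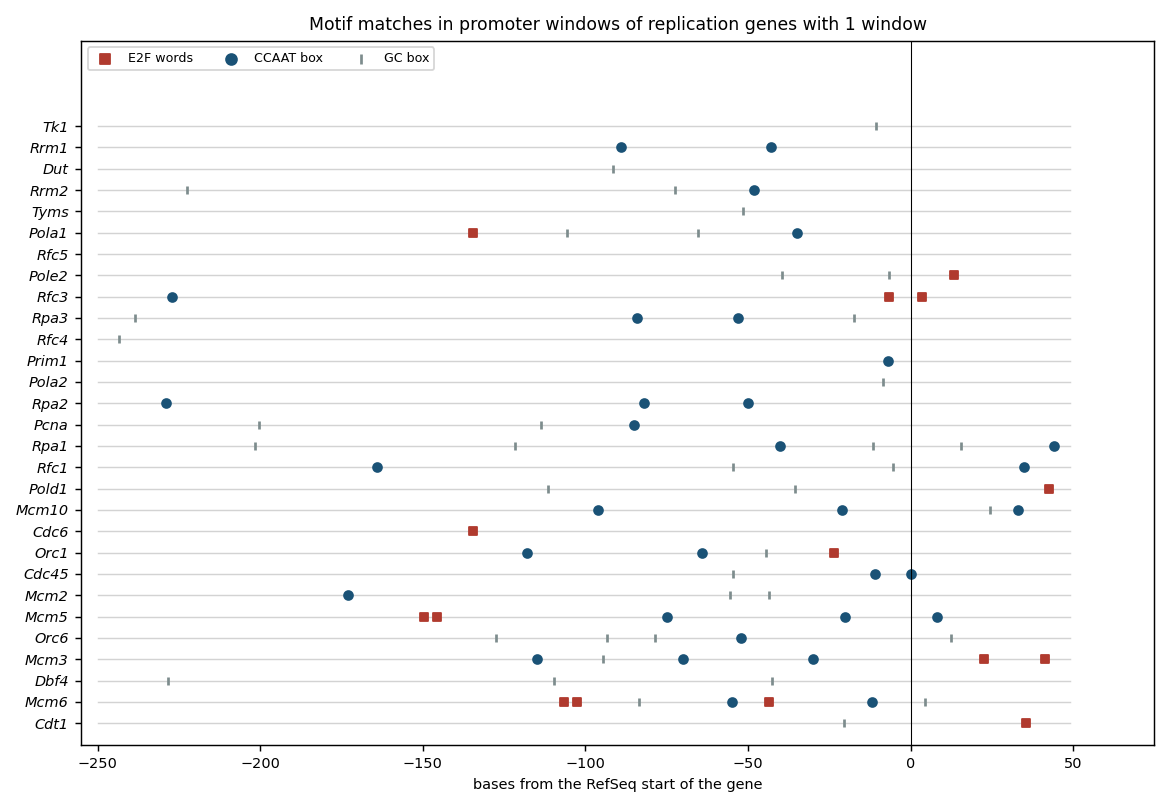
Motif matches in the promoter windows of the replication genes that have exactly 1 RefSeq window, by distance in bases from the annotated start (x axis, vertical line at the start), 1 gene per line. Squares are E2F words, circles CCAAT boxes and ticks GC boxes; E2F words lie from 153 bases before the start (Mcm5) to 40 bases after it (Pold1).

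In BCR-ABL1 cells the replication genes were high in both fractions and none passed the test. Of 41 genes, 0 were called in either direction, where 5.37% of all 12223 genes were (limma). At an unadjusted p under 0.05 there were 5 of the 41 (Pola2, Orc6, Cdc6, Mcm3 and Rfc2), all with the lower value in GFP-positive cells, against 1863 of 12223 genes. Differences ran from -0.33 (Pola2) to 0.15 (Orc2), with a median of -0.03 beside 0 over all genes. The median was -0.03 for licensing and origin genes, -0.01 for fork genes and -0.04 for nucleotide supply genes. In 16 genes both GFP-positive arrays lay below both GFP-negative arrays, in 4 they lay above, and in 21 the fractions overlapped. Of all 18193 genes, without the filter, 17.9% were below and 20.2% above. Those shares include dim genes that tie at the floor and so cannot lie apart, while all 41 genes passed the filter. The 95% interval of the difference lay within 1.5-fold either way for 39 of the 41 genes, against 78.8% of all genes tested. Gins2 and Pole2, whose spleen GFP-negative arrays spread widely, were the other two, and their intervals lay within 2-fold.

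Single genes show how close the BCR-ABL1 fractions were. Pcna, the sliding clamp, gave 11898 and 12101 in GFP-negative cells and 11767 and 12059 in GFP-positive cells, and the arrays of the 2 fractions overlapped. Mcm7, of the helicase ring, gave 8424 and 8619 against 8402 and 8536, again with overlap. The second subunit of polymerase alpha, Pola2, differed most, with 1573 and 1743 against 1354 and 1289.8 (-0.33 ± 0.10, adjusted p = 0.119). Both of its GFP-positive arrays were the lower ones. Cdc6, the loader of the MCM ring, gave 2146 and 2063 against 1783 and 1767 (-0.25 ± 0.09, adjusted p = 0.211). Orc6 gave 4149.9 and 4122 against 3550.3 and 3652 (-0.20 ± 0.06, adjusted p = 0.100). In neither of these did the fractions overlap, and neither passed the test.

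**Figure D2:**
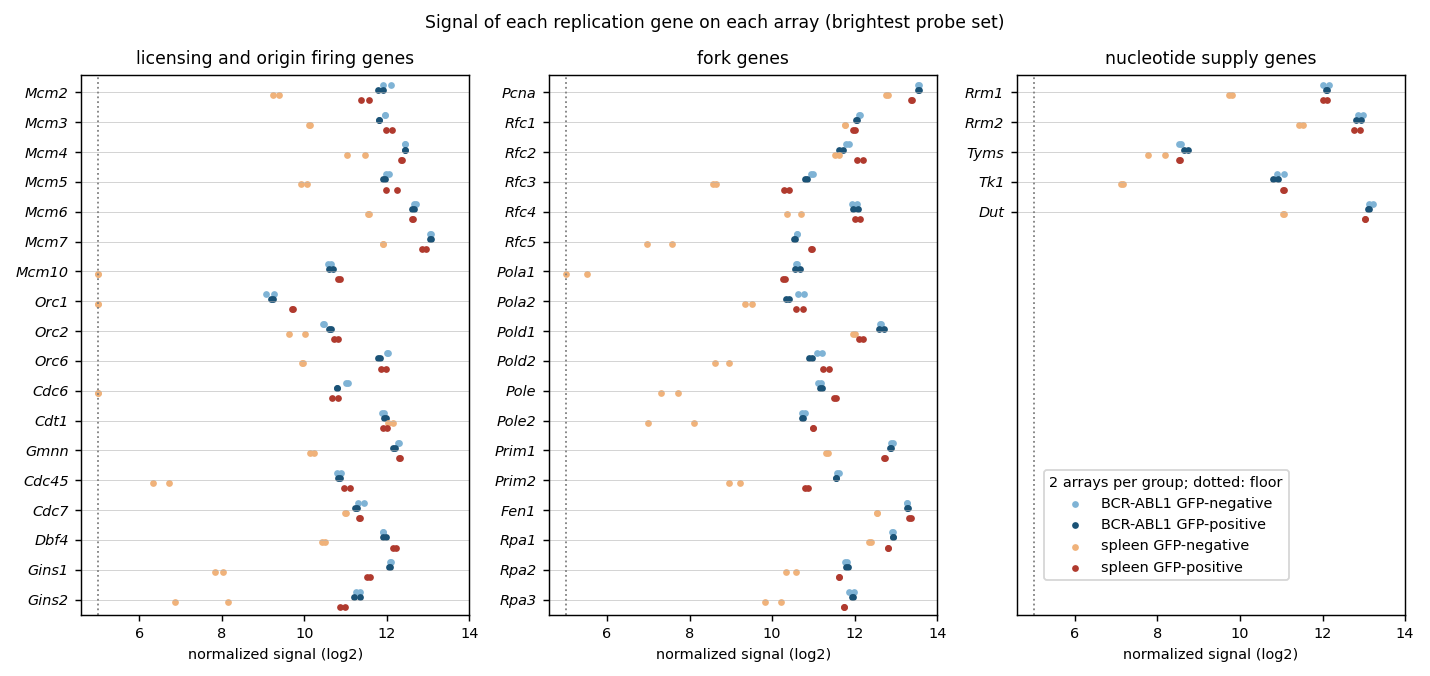
Normalized signal (log2, x axis) of each replication gene on each of the 8 arrays, 1 gene per line and 1 panel per role, with 2 points per group and a dotted line at the floor. The 2 BCR-ABL1 groups and the spleen GFP-positive group lie together, and the spleen GFP-negative points lie to the left of all others for every gene but Cdt1; Mcm10, Orc1 and Cdc6 sit on the floor there.

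In spleen cells nearly the whole replication set was higher in the GFP-positive fraction. Of 41 genes, 40 rose, 0 fell and 1 (Cdt1) was not called, where 45.7% of all genes tested rose and 31.4% fell. The median difference was 1.73, beside 0.18 over all genes, and 30 of the 41 genes passed the test with at least 2-fold (36.3% of all genes). Licensing and origin genes rose in 17 of 18 (median 2.04), fork genes in 18 of 18 (median 1.46) and nucleotide supply genes in 5 of 5 (median 1.96). In these bulk samples fewer cells that express a gene and less RNA per cell cannot be told apart. The myeloid and T and NK cell markers named above moved the opposite way: 12 of 12 tested myeloid markers and 10 of 10 tested T and NK markers fell, S100a8 from 19564 and 18768 to 32.8 and 33.8. Of 14 myeloid markers 13 were over the filter on dim probe sets in spleen GFP-negative cells and 4 in GFP-positive cells. Of 10 T and NK markers these were 10 and 5. Many markers thus passed the filter through the arrays where they were high, so these counts of falls are no separate evidence. The trimmed mean and the 3' to 5' ratios also differed between these fractions, and the part of any of these in the result was not tested. Of 7 B lineage markers 4 fell and 2 rose, and their summed signal was 45326 to 46118 in GFP-negative and 35601 to 37338 in GFP-positive cells.

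The scale chosen moves the spleen differences as a whole. The median over all genes was 0.18 with quantile normalization, 0.39 on the deposited values and 0.55 with arrays shifted to one median, and the share of calls that were higher was 59.2%, 69.0% and 75.1%. On each of the 3 scales 39 of the 41 genes lay above the median of all genes, and 40, 40 and 41 were called higher. The scale moved 8 of the 40 called differences by over 1.5 times: with arrays shifted to one median Cdc7 was 0.81 in place of 0.34, Rfc1 0.60 in place of 0.21 and Pold1 0.53 in place of 0.17, with Orc2, Pola2, Rfc2, Rpa1 and Tyms at 1.60, 1.93, 0.96, 0.74 and 1.10. In spleen GFP-negative cells Mcm10, Orc1, Cdc6 and Pola1 lay under the filter's signal of 51.0, so these 4 genes passed it through the other groups. Among the 37 genes over it in both spleen fractions 36 rose and 0 fell, with a median of 1.71. Of all 10503 genes over it in both fractions 44.5% rose and 31.6% fell, with a median of 0.15.

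Licensing begins with ORC. Orc1, the ATPase subunit that is made anew in each cycle, was at the floor of 32 in both spleen GFP-negative arrays and gave 834 and 852 in GFP-positive cells, at least 26.3-fold higher (adjusted p = 1.16e-08). Orc2, a core subunit, rose less, from 789 and 1030.5 to 1684 and 1791 (0.95 ± 0.12). Orc6, the small subunit, rose from 1003 and 977 to 3699 and 4016 (1.96 ± 0.06). No array of one spleen fraction lay in the range of the other for any of the 3 ORC genes. The spleen fractions also lay apart in 38.7% (GFP-positive higher) and 28.9% (GFP-positive lower) of all 18193 genes. Cdc6, which ORC recruits to load the MCM ring, was at the floor in both GFP-negative arrays and gave 1794 and 1643 in GFP-positive cells, at least 53.7-fold higher (adjusted p = 2.68e-09). The floor leaves Cdc6 and Orc1 no spread between their spleen GFP-negative arrays, so these p-values may be too small. As deposited, Cdc6 gave 35.1 and 20.2 on those arrays.

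The brightest Cdt1 probe set was not called, while Gmnn, the gene of the CDT1 inhibitor, rose. Cdt1, the other loader of the ring, gave 4551 and 4162 in spleen GFP-negative cells and 4086 and 3823 in GFP-positive cells (-0.14 ± 0.06, adjusted p = 0.0565). Its fractions did not overlap, yet the gene missed the threshold, and its sign depends on the scale: the difference was 0.04 on the deposited values and 0.20 with arrays shifted to one median, the latter called (adjusted p = 0.0328, range over all alternatives 0.0169 to 0.571). A second, dimmer Cdt1 probe set gave 1121 and 1270.2 against 1432 and 1511 (0.30 ± 0.09, adjusted p = 0.0123 over all probe sets). Gmnn, which encodes geminin, the protein that holds CDT1 inactive after licensing, rose from 1126 and 1211 to 5049 and 5099 (2.12 ± 0.05, adjusted p = 1.09e-08).

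All 6 subunits of the MCM ring rose in spleen GFP-positive cells, from 1.00 (Mcm7) to 2.16 (Mcm2). Mcm2 gave 601 and 666 in GFP-negative and 2654 and 3027 in GFP-positive cells (2.16 ± 0.10). Mcm5 gave 1073 and 968 against 4836 and 4031 (2.12 ± 0.09), and Mcm3 gave 1121 and 1105 against 4434 and 4059 (1.93 ± 0.06). The other three, Mcm4, Mcm6 and Mcm7, each differed by about 1 on the log2 scale (1.10 ± 0.11, 1.07 ± 0.04 and 1.00 ± 0.04). Mcm7 gave 3807 and 3842 in GFP-negative and 7407 and 7859.8 in GFP-positive cells. Over all tested probe sets, Mcm2, Mcm3 and Mcm5 ran from 1.93 to 3.80 and Mcm4, Mcm6 and Mcm7 from 0.77 to 2.06, a split that was not tested. No array of one spleen fraction lay in the range of the other for any of the 6 genes. That was also so for 38.7% (GFP-positive higher) and 28.9% (GFP-positive lower) of all 18193 genes, without the filter.

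Genes that turn the loaded ring into a helicase covered a wide range, from Cdc7 at 0.34 to Mcm10. Mcm10, which acts when the helicase is activated, was at the floor in both spleen GFP-negative arrays and gave 1859 and 1814 in GFP-positive cells, at least 57.4-fold higher (adjusted p = 2.68e-09). That bound holds for its brightest probe set, as its 3 tested probe sets ran from 2.05 to 5.84. As for Cdc6, the p-value of Mcm10 lacks the spread under the floor. Cdc45, a subunit of the active helicase, rose from 80.1 and 106 to 2010.1 and 2187 (4.51 ± 0.13). Gins1 and Gins2, of the GINS complex that joins it, rose by 3.62 ± 0.07 and 3.41 ± 0.34. Gins2 gave 116 and 286 in GFP-negative cells, the widest relative gap between arrays of a group among these genes, and 1863 and 2012 in GFP-positive cells. The kinase and its activator differed less: Cdc7 rose from 2072 and 2019 to 2564 and 2609 (0.34 ± 0.06), and Dbf4 from 1384 and 1455 to 4542 and 4772 (1.71 ± 0.05). With the mean of its probe sets Cdc7 was 0.10 and not called (adjusted p = 0.330).

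At the fork, the catalytic subunits of polymerases alpha and epsilon, Pola1 and Pole, gave the largest differences. Pola1, the catalytic subunit of polymerase alpha, gave 45.7 and 32 in spleen GFP-negative cells, the second at the floor, and 1230.1 and 1270.2 in GFP-positive cells (5.03 ± 0.16, adjusted p = 3.68e-08). Its partner Pola2 rose from 647 and 736 to 1535 and 1708 (1.23 ± 0.10). The primase subunits Prim1 and Prim2 rose by 1.39 ± 0.04 and 1.74 ± 0.09. Pole, the catalytic subunit of polymerase epsilon, rose from 211 and 159 to 2915 and 2981 (4.01 ± 0.12). Pole2, its second subunit, rose from 127 and 275 to 2036 and 2020.0 (3.44 ± 0.29), with a more than 2-fold gap between its GFP-negative arrays.

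The polymerase delta subunits went apart in size. Pold1, the catalytic subunit, gave 4140.0 and 3977 against 4427 and 4722 (0.17 ± 0.06, adjusted p = 0.0196). That is the smallest called difference of the 41 genes, and it just missed the threshold without the filter (adjusted p = 0.0570). It missed it as well without the intensity trend in eBayes (adjusted p = 0.0730) and without spleen GFP-negative replicate 2 or GFP-positive replicate 2 (adjusted p = 0.122 and 0.124). These values belong to the brightest Pold1 probe set, and its second tested probe set differed by 0.89. Pold2, the accessory subunit, rose from 497 and 389.9 to 2409 and 2645 (2.52 ± 0.12, adjusted p = 2.51e-07).

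The clamp and its loader spanned a wide range. Pcna rose from 6956 and 7217 to 10483 and 10644 (0.58 ± 0.03), a 1.49-fold difference that was larger than the gap between arrays of a fraction. Within RFC, Rfc1, the large subunit specific to the replicative loader, rose by 0.21 ± 0.04 and Rfc2 by 0.56 ± 0.07. Rfc3 and Rfc4 rose by 1.73 ± 0.08 and 1.54 ± 0.11. Rfc5 gave 126 and 191 in GFP-negative cells and 1993 and 1959 in GFP-positive cells (3.67 ± 0.17). In the probe sets read, subunits of one complex therefore differed by 1.16-fold at one end and 12.7-fold at the other. All tested probe sets ran from 0.21 to 1.19 for Rfc1 and from 0.40 to 0.61 for Rfc2. For Rfc3 they ran from 1.20 to 1.73 and for Rfc4 from 1.54 to 3.03, while Rfc5 has only 1.

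The single strand binding protein RPA and the flap nuclease also rose. Rpa1, the largest RPA subunit, went from 5394 and 5218 to 7123 and 7213 (0.43 ± 0.03). Rpa2 and Rpa3 rose by 1.16 ± 0.08 and 1.71 ± 0.11. Fen1, which removes the flaps of Okazaki fragments, rose from 5945 and 5936 to 10246 and 10499 (0.80 ± 0.03). Neither Rpa1 nor Fen1 had overlapping spleen fractions, nor did 38.7% (GFP-positive higher) and 28.9% (GFP-positive lower) of all 18193 genes, without the filter.

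All 5 nucleotide supply genes rose. Tk1, the thymidine kinase of S phase, gave 143 and 138 in spleen GFP-negative and 2095 and 2136 in GFP-positive cells (3.91 ± 0.09, adjusted p = 9.36e-09). The ribonucleotide reductase subunits Rrm1 and Rrm2 rose by 2.29 ± 0.06 and 1.37 ± 0.07, Rrm1 from 858 and 892 to 4149 and 4388. Dut, which keeps uracil out of DNA by hydrolysing dUTP, rose from 2160.0 and 2119 to 8314 and 8338 (1.96 ± 0.04). By its brightest probe set Tyms, which makes dTMP, rose least, from 293 and 218 to 372 and 366 (0.55 ± 0.15, adjusted p = 0.00904). Its difference was 0.33 without spleen GFP-negative replicate 2, and it was not called in a fit of the 4 spleen arrays alone (adjusted p = 0.0710). The 3 tested Tyms probe sets ran from 0.55 to 1.42, and the brightest gave the smallest of these differences. A further probe set that names Tyms together with another gene was not used.

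**Figure D3:**
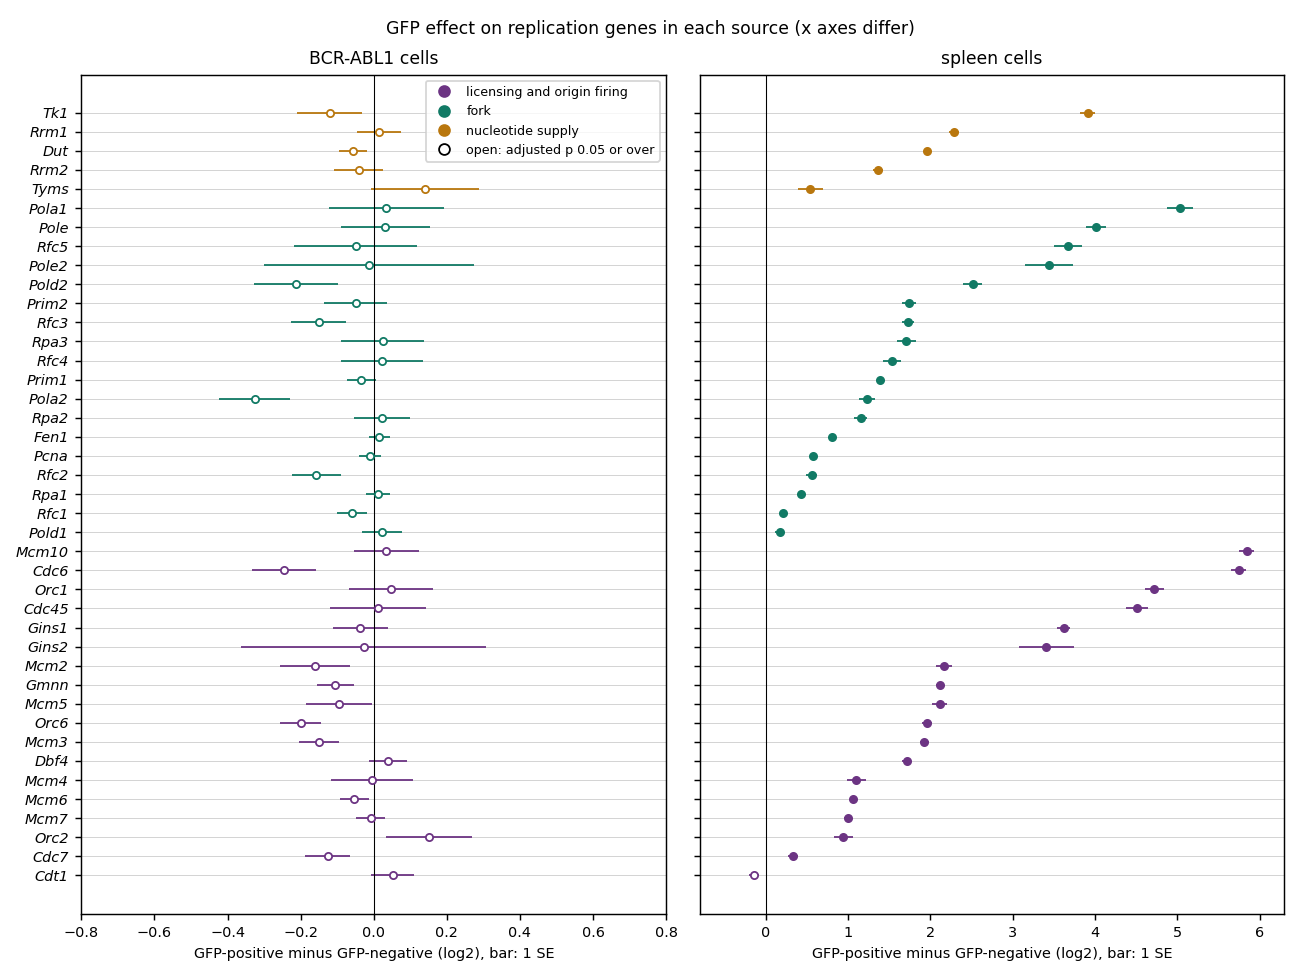
GFP-positive minus GFP-negative signal (log2, x axis) of each replication gene in BCR-ABL1 cells (left) and spleen cells (right), 1 gene per line, coloured by role, with bars of 1 standard error; the x axes differ. Open points were not called: all 41 in BCR-ABL1 cells, between -0.33 and 0.15, and Cdt1 alone in spleen cells, where the highest is Mcm10 (a lower bound, since its GFP-negative arrays are at the floor).

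The difference between the GFP effects of the 2 sources was tested directly as an interaction. It was called for 38 of 41 genes, each with the larger effect in spleen cells, where 69.0% of all genes were called, 5012 with the larger value in spleen cells and 3427 with the smaller. The 3 genes not called were Cdt1 (-0.19 ± 0.08, adjusted p = 0.0693), Pold1 (0.15 ± 0.08, adjusted p = 0.121, with 0.00240 and 0.000421 on the deposited values and with arrays shifted to one median) and Tyms (0.41 ± 0.21, adjusted p = 0.117, with 0.00693 and 0.00311 on those scales). With the mean of their probe sets Cdc7 and Dbf4 were not called (adjusted p = 0.0898 and 0.0909). The median interaction was 1.79, beside 0.18 over all genes. Genes read at or near the floor headed the order, with Cdc6 at 5.99 ± 0.12, Mcm10 at 5.81 ± 0.13 and Pola1 at 4.997 ± 0.22. The floor takes spread from their spleen GFP-negative arrays, so these standard errors may be too small. Of genes with no array at the floor, Cdc45 (4.499 ± 0.18), Tk1 (4.03 ± 0.13) and Pole (3.98 ± 0.17) came next after Orc1. Since the spleen GFP-negative arrays enter every interaction, the marker and RNA values given for them stand beside these counts too.

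In the GFP-positive cells of the 2 sources the replication transcripts lay within 2-fold of each other. Between them 9 genes were higher in BCR-ABL1 cells, 7 were lower and 25 were not called, where 24.8% and 25.5% of all genes were higher and lower. No gene reached 2-fold (15.5% of all genes were called with at least 2-fold), and the median was 0.01, beside -0.05 over all genes. The 95% interval lay within 2-fold either way for 40 of the 41 genes, against 75.5% of all genes, Gins2 being the exception. Genes called with the higher signal in BCR-ABL1 cells were led by Prim2 (2991 and 2997 against 1773 and 1867, 0.72 ± 0.09), Gins1 (4214 and 4306 against 2957 and 3085, 0.50 ± 0.07), Pold1 (0.48 ± 0.06) and Rfc3 (0.48 ± 0.08). Mcm2, Mcm7, Pcna, Prim1 and Rpa1 were the others, at 0.37, 0.15, 0.17, 0.14 and 0.12. Genes called with the lower signal there were led by Orc1 (584 and 603 against 834 and 852, -0.51 ± 0.11) and Rfc2 (3159 and 3358 against 4223 and 4734, -0.46 ± 0.07). Pold2, Pole, Pola2, Mcm3 and Dbf4 followed, at -0.37, -0.34, -0.29, -0.24 and -0.24.

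The balance of directions turned with the scale: 8 genes were higher and 8 lower on the deposited values, and 6 higher and 10 lower with arrays shifted to one median. Both roles with many genes were split in this comparison. Licensing and origin genes had 3 higher, 3 lower and 12 not called, fork genes 6 higher, 4 lower and 8 not called, and nucleotide supply genes 0 called of 5. Subunits of one complex went both ways: Rfc3 was higher and Rfc2 lower in BCR-ABL1 cells, and Pold1 was higher and Pold2 lower. The count of 16 called genes depends on which arrays share the estimate of spread, as it was 25 without either spleen GFP-negative array, which is not itself compared here. It was 8 without BCR-ABL1 GFP-positive replicate 2, 10 without BCR-ABL1 GFP-positive replicate 1, and 10 without spleen GFP-positive replicate 1.

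In GFP-negative cells the sources were far apart. There 40 of the 41 genes were higher in BCR-ABL1 cells and 1 was lower, where 45.7% of all genes were higher and 32.8% lower, and the median was 1.89 beside 0.16 over all genes. The range ran from 0.26 (Rfc2) to Cdc6, at 2146 and 2063 in BCR-ABL1 cells against the floor in spleen cells. Mcm10, Orc1, Cdc6 and Pola1 lay under the filter's signal in the spleen arrays. Among the 37 genes over it in both groups 36 were higher and 1 lower (median 1.57), where 44.2% and 32.4% of all such genes were. Orc1, Cdt1 and Pole2 had probe sets called in both directions. Cdt1 was the gene with the lower signal (-0.18 ± 0.06, adjusted p = 0.0202), and its sign turned with arrays shifted to one median (0.10) and with the mean of its probe sets (0.03), neither called. It was also not called without BCR-ABL1 GFP-negative replicate 2 or spleen GFP-negative replicate 1 (adjusted p = 0.105 and 0.111, range over all alternatives 0.00881 to 0.862). Rfc2 was not called without those arrays either (adjusted p = 0.0522 and 0.0658). This comparison and the spleen GFP effect share the spleen GFP-negative arrays, so they are not independent of each other.

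**Figure D4:**
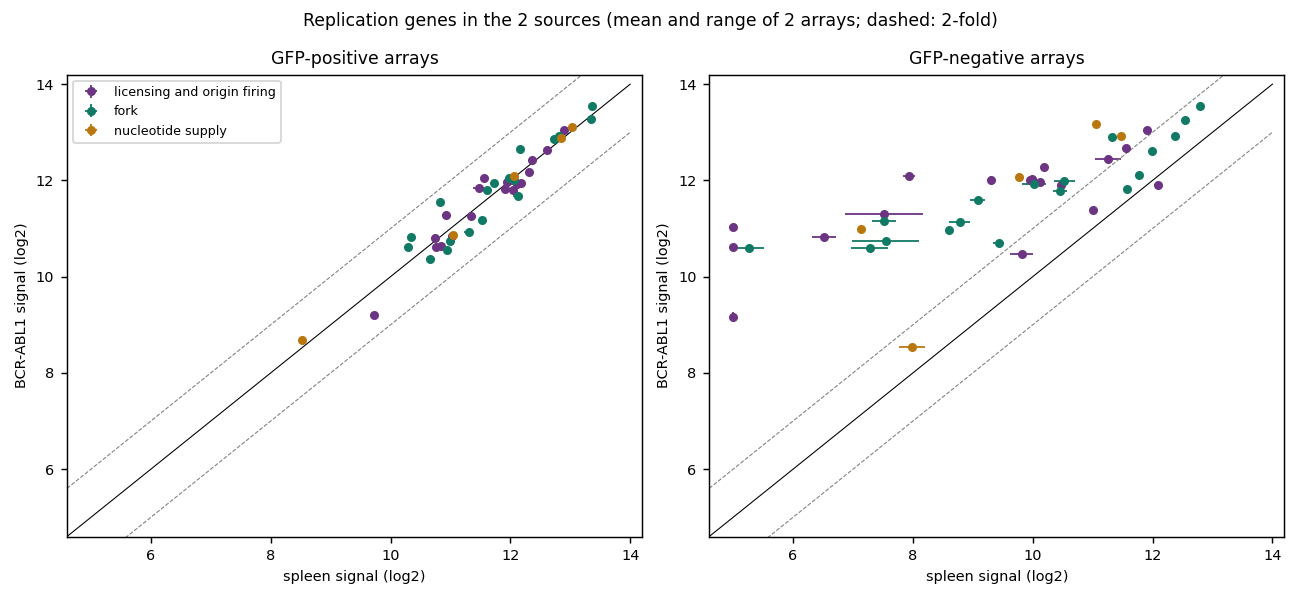
BCR-ABL1 signal (log2, y axis) against spleen signal (log2, x axis) of the 41 replication genes in GFP-positive cells (left) and GFP-negative cells (right), coloured by role; points are means and bars the range of 2 arrays, the solid line marks equal signal and dashed lines 2-fold. All 41 genes lie within 2-fold in GFP-positive cells, and 31 are called beyond 2-fold in GFP-negative cells, where 38.7% of all genes tested are.

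Several genes have more than 1 probe set, and these differ in size more than in direction. Of the 91 probe sets 85 passed the filter, and 6 were under it. In spleen cells 79 of the 85 rose and 1 fell, where 44.9% and 33.3% of all 27022 probe sets did. In BCR-ABL1 cells 0 were called. The probe set that fell belongs to Orc1 and gave 205 and 199 in GFP-negative against 144 and 155 in GFP-positive cells (-0.44 ± 0.12, adjusted p = 0.0101), opposite to the brighter Orc1 probe set described above. Dimmer second probe sets of Cdc45, Pole2, Dbf4 and Cdc7 had negative differences that were not called (-0.39, -0.34, -0.30 and -0.14). Between sources in GFP-negative cells 78 of the 85 were higher in BCR-ABL1 cells and 3 lower, where 45.5% and 33.4% of all probe sets were. The interaction was called with the larger value in spleen cells for 76 and with the smaller for 1, where 40.3% and 29.5% of all were.

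The brightest probe set often gave the smallest spleen difference. That was so in 18 of 30 genes that have several tested probe sets and whose brightest one rose, or 60%, beside 40.2% of 2630 such genes over all. Rrm2 is the clearest case: its brightest probe set went from 2929 and 2755 to 7684 and 6973 (1.37 ± 0.07), while its other two differed by 4.20 ± 0.07 and 5.59 ± 0.11. The last of these went from 50.03 and 61.0 to 2514 and 2833. In BCR-ABL1 cells the 3 Rrm2 probe sets differed by -0.04, -0.18 and -0.11 between the fractions, none called. Fen1 had 0.80 and 2.59, Rfc4 1.54 and 3.03, and Orc2 0.95, 2.69 and 3.49 in spleen cells. With the mean of all probe sets, dim ones included, 12 of the called spleen differences moved by over 1.5 times: Rrm2 was 3.72, Orc2 2.38, Fen1 1.69, Rfc1 0.70, Pold1 0.53, Orc1 2.14, Pola1 2.52, Cdc45 2.06, Pole2 1.55, Mcm6 0.71, Dbf4 0.71 and Cdc7 0.10. The sizes given for single genes therefore belong to the probe set read.

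**Figure D5:**
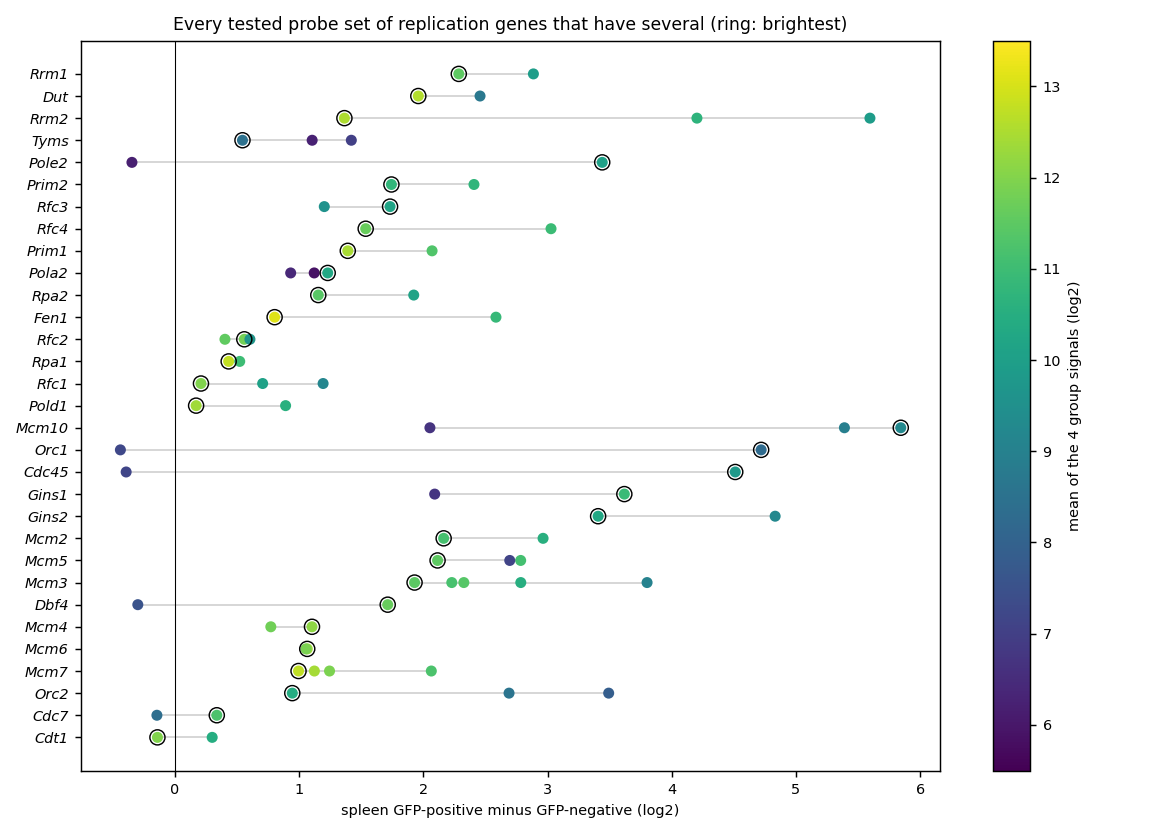
Spleen GFP-positive minus GFP-negative signal (log2, x axis) of every tested probe set of the 31 replication genes that have several, 1 gene per line, coloured by mean signal (log2) and with a ring around the brightest. For Rrm2 the ringed point is at 1.37 and the others at 4.20 and 5.59; Orc1 has one probe set far to the right and one at -0.44.

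Spleen differences covered wide ranges with and without an E2F word in the promoter window. Genes with a word had a median of 1.93 (11 genes, from -0.14 for Cdt1 to Cdc6), those with a window and no word 1.54 (23 genes, from 0.21 for Rfc1 to Mcm10), and those without a window here 2.12 (7 genes), with genes at the floor held at their bound. Pold1, at 0.17, and Cdt1 have a word, while Mcm10 and Tk1, with large differences, have none in the window. These are descriptions of exact letters in 300 bases, and no difference between the gene groups was tested.

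From lists of other genes of the same pathways 70 were tested. In spleen cells 56 of the 70 rose and 7 fell, where 45.7% of all genes rose and 31.4% fell. Without the filter on dim probe sets 55 rose and 7 fell, where 32.2% and 23.7% of all 18193 genes did. On the deposited values 60 were higher and 3 lower, and with arrays shifted to one median 64 and 2. Over all genes, 69.0% and 75.1% of the calls on these scales were higher, against 59.2% with quantile normalization. Other licensing and origin genes rose in 12 of 15, other fork genes in 18 of 21, other nucleotide supply genes in 9 of 14, and E2F and G1/S control genes in 17 of 20. The largest among licensing and origin genes were Ticrr, which brings CDC45 to origins (4.25, with one GFP-negative array at the floor), Mcm8 (4.24) and the helicase gene Recql4 (3.29). Among fork genes they were the checkpoint mediator Clspn (67.5 and 33.5 against 1972 and 2024, 5.39 ± 0.26), the cohesion factor Dscc1 (4.32) and the nuclease gene Dna2 (3.34). Dctd, the dCMP deaminase, gave 32.6 and 39.4 against 487 and 531 (3.83 ± 0.13), and the pyrimidine synthesis genes Umps and Cad rose by 1.93 and 1.69. Cyclin E2 (Ccne2, 4.41), the repressor E2f8 (4.03) and the activator E2f1 (3.78) led the control genes, Ccne2 and E2f1 with one GFP-negative array at the floor each. With the mean of all probe sets Ticrr, Dscc1, Dna2 and E2f1 were smaller, at 1.78, 1.86, 1.83 and 2.26, and still called. Of the genes named here, Ticrr, Mcm8, Recql4, Clspn, Dctd, Ccne2 and E2f1 lay under the filter's signal of 51.0 in spleen GFP-negative cells. They passed the filter through the other groups, and the count of 56 includes them.

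The 7 genes with a called fall in spleen cells came from all 4 lists, and most of these falls depend on the scale. Rrm2b, the ribonucleotide reductase subunit used outside S phase, fell from 3687 and 3789 to 2035 and 2030.1 (-0.88 ± 0.05). Tfdp2, a dimer partner of E2F factors, fell from 1042 and 1160.5 to 442 and 426 (-1.34 ± 0.08). Both were also called lower on the other two scales (Rrm2b at -0.65 and -0.49, Tfdp2 at -0.86 and -0.70), but with the mean of their probe sets both were called higher (0.53 and 0.76). Mcmbp, which binds MCM proteins, was at -0.65, at -0.34 on the deposited values, and at -0.18 and not called with arrays shifted to one median (adjusted p = 0.0835). The sign of the other four turned with arrays shifted to one median. Tk2, the mitochondrial thymidine kinase, went from -0.45 to 0.08, and was not called on the deposited values (-0.08). The retinoblastoma family genes Rb1 (-0.27, adjusted p = 0.0499) and Rbl2 (-0.36, adjusted p = 0.00482) went to 0.19 and 0.30, Rbl2 then called higher (adjusted p = 0.0247). Pole4, a small subunit of polymerase epsilon, went from -0.32 to 0.19, also called higher (adjusted p = 0.0232). Rb1, Rbl2 and Pole4 were positive on the deposited values too (0.03, 0.14 and 0.03), none called.

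In BCR-ABL1 cells 3 of the 70 were called, 1 higher and 2 lower in GFP-positive cells, beside 5.37% of all genes. Cdc25a, the phosphatase that activates CDK2, rose from 1086 and 1089 to 1564 and 1609.5 (0.55 ± 0.08, adjusted p = 0.00636). Cdk2 itself fell from 2232 and 2219 to 1838 and 1800.4 (-0.29 ± 0.06, adjusted p = 0.0402). Samhd1, which degrades deoxynucleotides, fell from 826 and 854 to 656 and 695 (-0.31 ± 0.06, adjusted p = 0.0271). In spleen cells Cdc25a and Cdk2 rose (2.65 and 0.71), and Samhd1 was not called (-0.02, but 0.22 and called higher with arrays shifted to one median, adjusted p = 0.0113, and -0.46 and called lower with the mean of its probe sets, adjusted p = 0.00677). None of the 3 BCR-ABL1 calls held when any one of the 4 BCR-ABL1 arrays was left out, or with the mean of all probe sets (0.13, -0.15 and -0.11). Cdk2 was also not called on the deposited values or with arrays shifted to one median (adjusted p = 0.138 and 0.196), nor Samhd1 without the filter (adjusted p = 0.0750).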

How the data were processed

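Mouse Affymetrix expression arrays measured the RNA of 8 samples, 2 in each of 4 groups, with GCOS 1.3 named in the submitters' processing notes. The deposited table gives linear signal intensities for 45101 probe sets, per the file headers and values, with no source here stating the probe summary or scaling. Control probe sets (64) were left out, and 34945 of the other 45037 had 1 gene symbol. Trimmed means (2% trimmed) differed by a ratio of 1.25, so arrays were quantile normalized, floored at 32 and log2 transformed. A filter left out probe sets whose mean log2 value was below the 40th percentile (5.67), and each gene was read from its brightest probe set with 1 symbol. All 8 arrays were fitted with limma 3.58.1 in R 4.3.3 (1 mean per group, eBayes with trend, 4 residual degrees of freedom), tested on simulated data first, with Benjamini-Hochberg adjustment over 12223 genes. The smallest two-sided p an exact permutation test of 2 arrays against 2 can give is 0.333, so calls rest on the model, and the number of arrays limits the precision. A group at the floor in both arrays gives a lower bound. It also adds no spread to the fit, so the standard errors and p-values of such genes may be too small. Promoter windows are RefSeq's for GRCm38.p6.

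The genes, lists, tests and alternatives were chosen with earlier results of these data known. Names follow a rule: any of the 41 genes, any listed marker, and of the other pathway genes those called in BCR-ABL1 cells, the 3 with the largest called spleen difference in each list, and all called against most of their list. Alternatives were other scales, floors, filters, probe set rules, a variance model without trend, a replicate block, fewer arrays and a 2-fold threshold, with each gene's probe set kept.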

Additional observations from a re-analysis of the deposited data

Results flagged for a closer look

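The GFP effect differed between the 2 sources for 38 replication genes by the interaction test (limma, adjusted p under 0.05), which is what marked them here. Values are the spleen effect minus the BCR-ABL1 effect on the log2 scale, and all are positive. Among licensing and origin genes they were Cdc6 5.99, Mcm10 5.81, Orc1 4.67, Cdc45 4.499, Gins1 3.65, Gins2 3.43, Mcm2 2.33, Gmnn 2.22, Mcm5 2.21, Orc6 2.16, Mcm3 2.08, Dbf4 1.68, Mcm6 1.12, Mcm4 1.11, Mcm7 1.01, Orc2 0.80 and Cdc7 0.46. Those of Cdc6, Mcm10 and Orc1 rest on spleen GFP-negative arrays at the floor, and the dimmer Orc1 probe set was called the other way. For fork genes they were Pola1 4.997, Pole 3.98, Rfc5 3.72, Pole2 3.45, Pold2 2.73, Rfc3 1.88, Prim2 1.79, Rpa3 1.68, Pola2 1.56, Rfc4 1.51, Prim1 1.43, Rpa2 1.13, Fen1 0.79, Rfc2 0.72, Pcna 0.59, Rpa1 0.42 and Rfc1 0.27, with 1 spleen GFP-negative array at the floor for Pola1. Nucleotide supply genes had Tk1 4.03, Rrm1 2.27, Dut 2.02 and Rrm2 1.41. Of all genes tested, 69.0% were called for this interaction.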

How the results depend on the processing

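The direction and the side of the threshold of single genes were compared over 20 alternatives (19 for the interaction), where a change of sign counts when either value was called. They held in 820 of 820 cases for the GFP effect in BCR-ABL1 cells, 810 of 820 in spleen cells, 767 of 779 for the interaction, 726 of 820 between sources in GFP-positive cells and 809 of 820 in GFP-negative cells. The sign of Cdt1 turned in spleen cells with arrays shifted to one median (0.20), and between sources in GFP-negative cells with that shift (0.10) and with the mean of its probe sets (0.034). For the 22 other pathway genes named, direction and side held in 413 of 440 cases in BCR-ABL1 cells and 411 of 440 in spleen cells. The sign turned in spleen cells with arrays shifted to one median for Tk2 (0.083), Rb1 (0.19), Rbl2 (0.30), Pole4 (0.19) and Samhd1 (0.22), on the deposited values for Rb1 (0.031), Rbl2 (0.14) and Pole4 (0.027), and with the mean of probe sets for Rrm2b (0.53), Tfdp2 (0.76) and Rb1 (0.36). Counting every probe set gave 80 called in spleen cells, 77 for the interaction, 29 between sources in GFP-positive and 81 in GFP-negative cells among replication genes, and 21129, 18864, 11900 and 21322 over all. A 2-fold threshold left 169 genes of all in BCR-ABL1 cells, 4438 in spleen cells, 4479 for the interaction, and 1896 and 4728 between sources in GFP-positive and GFP-negative cells, with 0 replication genes in the GFP-positive comparison. Replication genes called there were 16, and 10 without the intensity trend or 25 in a fit of its own 4 arrays. Leaving out 1 array gave 8 to 25 there, 0 to 0 in BCR-ABL1 cells, 39 to 41 in spleen cells, 38 to 39 for the interaction and 39 to 41 in GFP-negative cells. Over all genes in BCR-ABL1 cells it gave 210 to 839 in place of 656, with 210 without GFP-positive replicate 2, 223 without GFP-positive replicate 1, 235 without GFP-negative replicate 1 and 242 without GFP-negative replicate 2. Where these counts moved, the cause was not tested beyond what each alternative's own construction gives.

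Replicate numbers are shared between fractions, but with 2 pairs per source the data cannot show that they pair the samples: the replicate differences of the fractions correlated at 0.13 across genes in BCR-ABL1 cells and 0.27 in spleen cells. With the replicate block, 0 replication genes were called in BCR-ABL1 cells, 41 in spleen cells (40 higher, and Cdt1 lower with adjusted p = 0.0169), 39 for the interaction, 21 between sources in GFP-positive and 41 in GFP-negative cells. Over all genes the block gave 715, 9766, 8835, 6730 and 9952.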

Other observations

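Arrays of one group lay close for most replication genes. The median difference between the 2 arrays of a group, over the 41 genes and without sign, was 0.06 in BCR-ABL1 GFP-negative, 0.04 in BCR-ABL1 GFP-positive, 0.09 in spleen GFP-negative and 0.06 in spleen GFP-positive cells on the log2 scale. The largest was 1.299, for Gins2 in spleen GFP-negative cells, against 0.20 for Orc1, 0.16 for Gins2 and 0.26 for Mcm5 in the other three groups.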
